A study of Homo sapiens with 4 samples.

Results

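Cluster 2 is 1 of the 8 groups into which the authors' deposited annotation sorts single cells of MM134, a breast cancer line. Its members were taken from that annotation alone, as every cell given cluster 2, and they numbered 1232 of 8307 cells. The estradiol library supplied 82 of them and the vehicle library 1150, so 93.3% of the cluster came from vehicle, against 59.5% of all cells. The authors' phase calls put 85.4% of the estradiol members and 93.7% of the vehicle members in G1, the phase between division and DNA synthesis.

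MM134 (MDA MB 134VI) is an established line of invasive lobular carcinoma, labelled wild type. All cells were first deprived of hormone in medium with charcoal-stripped serum. Estradiol cells then had 100 nM estradiol for 24 h, and vehicle cells had 0.01% ethanol for 24 h. Each treatment gave 1 targeted mRNA library on a pan-cancer gene panel and 1 library of the DNA repair assay Haircut, matched by cell. With 1 library per treatment and assay there is no replicate check, nothing was tested, and every difference between treatments describes these libraries. Intervals are exact 95% intervals that cover counting error only. The labels do not say from which rows the authors made the clusters, so genes that set cluster 2 apart describe it and are no test of it.

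In G1 a cell either commits to a new round of replication, through D-type cyclins, their kinases and the release of E2F factors, or stays out of cycle. In luminal breast cells estradiol acts through the estrogen receptor and pushes cells from G1 into S phase, and without hormone such cells collect in G1. Haircut gives each cell synthetic DNA hairpins with a defined lesion; when enzymes cut at the lesion the strand ends there, and the position of the end is read by sequencing with a UMI, a tag that marks 1 captured molecule.

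The promoters of 3 genes are shown to set a motif of cell-cycle genes beside the values below: 2 genes that were low in cluster 2 against all other cells, and TXNIP, which was high. TOP2A encodes topoisomerase II alpha, which untangles chromosomes and is made mostly in S and G2. CCNB1 encodes cyclin B1, the partner of CDK1 at the entry into mitosis, and TXNIP encodes a thioredoxin-binding protein that limits glucose uptake and is linked to growth restraint. The stretches run from 250 bases before to 50 bases after the annotated start (RefSeq, GRCh38.p14) and are given on the strand of the gene. TOP2A lies on the minus strand at chr17:40417847-40418146, CCNB1 on the plus strand at chr5:69166900-69167199 and TXNIP on the minus strand at chr1:145996530-145996829. Capitals mark the cell-cycle homology region (CHR, searched as TTTGAA or TTCGAA) and the CCAAT box, each on either strand.
TOP2A: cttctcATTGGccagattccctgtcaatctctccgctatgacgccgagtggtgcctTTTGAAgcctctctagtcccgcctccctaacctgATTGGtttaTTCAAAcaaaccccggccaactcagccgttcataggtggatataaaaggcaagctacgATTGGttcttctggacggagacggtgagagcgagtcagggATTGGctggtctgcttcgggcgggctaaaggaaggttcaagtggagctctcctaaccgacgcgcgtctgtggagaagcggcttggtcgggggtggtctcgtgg
CCNB1: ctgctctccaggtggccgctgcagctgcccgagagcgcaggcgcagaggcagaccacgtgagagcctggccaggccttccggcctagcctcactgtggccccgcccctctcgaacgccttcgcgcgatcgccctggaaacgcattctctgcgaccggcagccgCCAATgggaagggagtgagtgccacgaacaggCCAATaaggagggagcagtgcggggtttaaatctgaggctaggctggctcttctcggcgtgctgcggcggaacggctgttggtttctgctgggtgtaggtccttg
TXNIP: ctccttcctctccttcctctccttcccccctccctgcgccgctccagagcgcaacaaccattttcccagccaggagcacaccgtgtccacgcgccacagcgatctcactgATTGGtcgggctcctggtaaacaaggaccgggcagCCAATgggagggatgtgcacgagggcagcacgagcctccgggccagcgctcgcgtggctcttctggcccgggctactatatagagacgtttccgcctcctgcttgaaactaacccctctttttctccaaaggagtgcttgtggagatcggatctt
The TOP2A stretch held 2 CHR matches and 4 CCAAT boxes. The CCNB1 and TXNIP stretches each held 2 CCAAT boxes and no match to either CHR spelling searched. Other spellings of the CHR were not searched, so CCNB1 is not shown to lack the motif. These searches alone do not sort CCNB1 from TXNIP. CCNB1 was at 301 CPM (UMIs relative to all UMIs of the same rows and cells) in estradiol members and 288 CPM in vehicle members, against 462 and 439 CPM in other G1 cells, with log2 ratios of -0.62 and -0.61. Of the 54 genes in the G2/M list described below, 46 had a promoter in the table, and 31 of those (67.4%) held a CHR match, against 16.6% of 27305 promoters. A CHR match and a CCAAT box together were in 25 of the 46 (54.3%), against 6.58% of all. A match is a description of the letters and not evidence of binding.

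Cluster 2 made up 2.44% of the estradiol library (82 of 3367 cells, interval 1.94 to 3.01) and 23.3% of the vehicle library (1150 of 4940, 22.1 to 24.5). Among cells called G1 it held 70 of 1163 in estradiol (6.02%, 4.72 to 7.54) and 1078 of 2493 in vehicle (43.2%, 41.3 to 45.2). Treatment and library cannot be told apart in these shares, and genes that mark cluster 2, TXNIP among them, also differed between the libraries. Few members were called outside G1: 11 S and 1 G2M cells in estradiol, and 63 S and 9 G2M cells in vehicle. Among all other cells G1 was called in 33.3% of the estradiol library and 37.3% of the vehicle library. Of the 4 cell barcodes found in both libraries, 1 belonged to cluster 2.

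Cluster 2 was the shallowest of the 8 clusters in both libraries and in all 3 blocks of the data. In the panel rows its median was 1331.5 UMIs per cell in estradiol and 1450 in vehicle, against 2396 and 2681 in the other G1 cells. In the all-gene rows, a second block of gene counts of unstated origin, the medians were 728.5 and 748 in cluster 2 and 1369 and 1328 in the other G1 cells. Repair UMIs were closer, at 949.5 in estradiol and 747 in vehicle for cluster 2, and 1191 and 924 for other G1 cells. Cluster 2 cells thus carried more repair UMIs per panel UMI, with medians of 0.721 and 0.507 against 0.459 and 0.332. After thinning every cell to 700 panel UMIs, cluster 2 cells showed a median of 241 genes in estradiol and 255 in vehicle, and other G1 cells 248 and 257. The unthinned medians were 331 and 361 genes in cluster 2 and 431 and 460 in other G1 cells. The mitochondrial share of all-gene UMIs had medians of 8.29% and 8.18% in cluster 2, and 7.82% and 7.75% in other G1 cells. Fewer RNA molecules per cell and less efficient capture give the same counts and cannot be told apart here. Among cells with at least 800 all-gene UMIs, cluster 2 made up 0.867% of the estradiol library and 11.2% of the vehicle library.

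**Figure D1:**
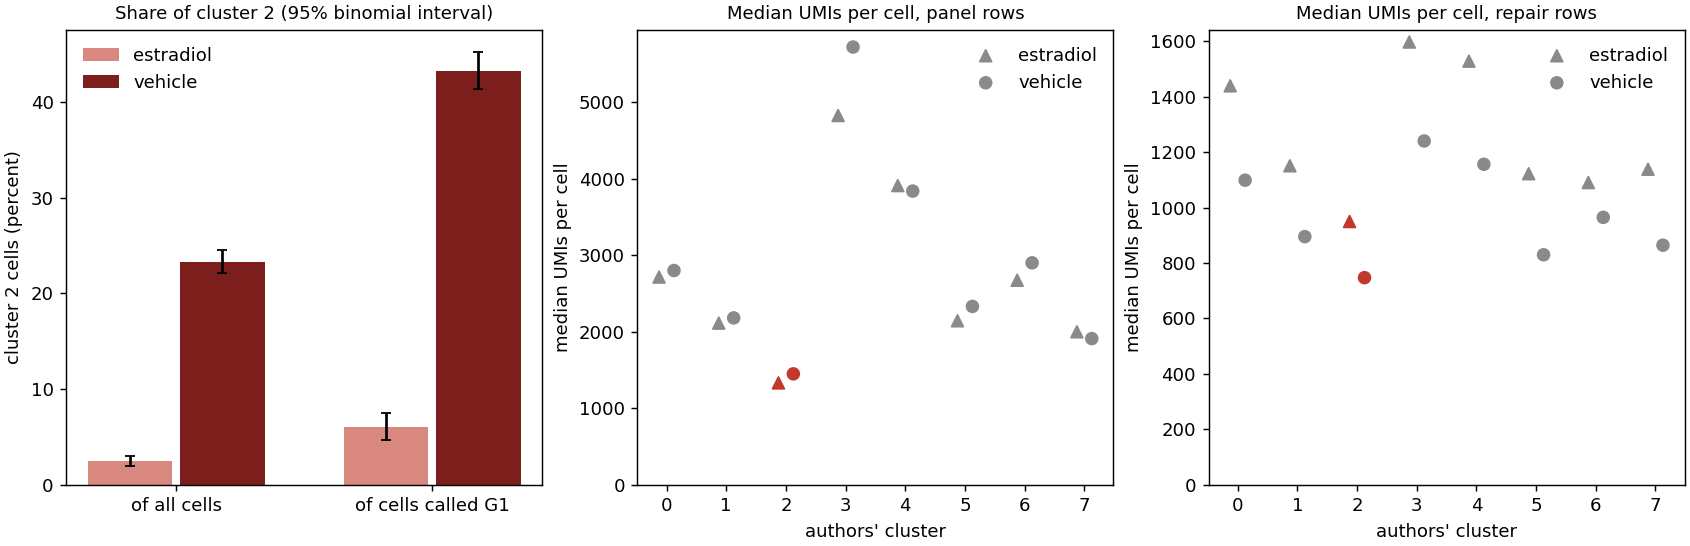
Left, the share of cells in cluster 2 (percent, with exact binomial intervals) among all cells and among G1 cells, estradiol beside vehicle; middle and right, median panel and repair UMIs per cell in each of the 8 clusters, with cluster 2 in red, triangles for estradiol and circles for vehicle. Cluster 2 is 2.44% of the estradiol and 23.3% of the vehicle library, and its medians of 1331.5 and 1450 panel UMIs are the lowest of the 8 clusters.

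The label of the cells as luminal breast cancer cells held in cluster 2. All 8 luminal markers had UMIs, with a summed level in the all-gene rows of 8245 CPM in estradiol and 7610 CPM in vehicle, against 9984 and 8219 CPM in other G1 cells. The keratin KRT19 stood at 3272 CPM in estradiol and 2878 CPM in vehicle, against 3867 and 3045 CPM in other G1 cells. None of 5 basal or myoepithelial markers and none of 7 immune or endothelial markers had a UMI in cluster 2. Mesenchymal markers summed to 144 CPM in estradiol and 246 CPM in vehicle, with 3 and 4 of 5 detected, against 207 and 267 CPM in other G1 cells.

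The genes of mitosis set cluster 2 furthest apart from the rest of the culture. Against all other cells of the vehicle library, 97 of 822 panel genes with at least 200 UMIs (11.8%) were at least 1.5-fold lower with an interval excluding a ratio of 1, and 21 (2.55%) were higher. In the estradiol library 110 of 806 (13.6%) were lower and 29 (3.6%) higher. That split depended on the scaling: with a median-of-ratios size factor it was 90 lower and 43 higher, and with the 10 most abundant genes left out of the total 84 lower and 44 higher. The comparison with other G1 cells below uses the same members and part of the same comparison cells. CENPA, the histone that marks centromeres, had 14 UMIs (8.23 CPM) in cluster 2 of the vehicle library against 326 CPM in all other cells, a log2 ratio of members to other cells of -5.31 (interval -6.18 to -4.56). In the estradiol library CENPA had no UMI in cluster 2, which allows up to 27.4 CPM, against 213 CPM elsewhere. TOP2A stood at 1906 CPM in estradiol members and 1209 CPM in vehicle members, against 18938 and 25559 CPM in all other cells. The mitotic kinase AURKB and the S and G2 cyclin CCNA2 were at 18.8 and 30.6 CPM in vehicle members, against 404 and 792 CPM. The replication histone HIST1H3B was at 63.8 CPM in estradiol members and 38.8 CPM in vehicle members, against 1380 and 1262 CPM. The mitotic kinase PLK1, read in the all-gene rows, had no UMI in vehicle members, which allows up to 3.42 CPM, against 65.7 CPM in all other cells. Clusters 5 and 6, which are also mostly G1 cells, were as low: in vehicle TOP2A was at 853 and 1167 CPM there, AURKB at 6.57 and 14.9 CPM, and CCNA2 at 23.0 and 18.0 CPM. These genes separate G1 from G2 and mitosis in any dividing cell.

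Lists of cell-cycle genes gave the same picture. For lists, members with at least 50 UMIs are counted, and at that minimum 11.6% of vehicle panel genes and 12.4% of estradiol panel genes were lower against all other cells, and 3.06% and 3.62% higher. All 9 G2/M genes on the panel were lower in both libraries, with a median log2 ratio of -3.31 in estradiol and -4.09 in vehicle, while the median panel gene was at -0.08 and -0.02. Of 18 S-phase genes 15 were lower in estradiol (median -0.91) and 13 in vehicle (median -0.80). PCNA, the sliding clamp of DNA polymerase, was at 337 CPM in estradiol members and 366 CPM in vehicle members, against 866 and 709 CPM in all other cells. The estrogen-repressed list went the other way in vehicle, where 5 of 12 were higher and the median was 0.57. At 200 UMIs 181 of 4762 all-gene rows (3.8%) were lower in estradiol and 119 (2.5%) higher, a split that was 150 and 169 under median-of-ratios scaling. In vehicle 534 of 5369 (9.95%) were lower and 93 (1.73%) higher. At 50 UMIs, where 8.18% of vehicle all-gene rows were lower and 2.71% higher, all 54 G2/M genes measured were lower (median -3.82), and so were 36 of 47 S-phase genes (median -1.08).

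The members called G1 carried fewer mitotic transcripts than the pooled other cells called G1, but not fewer than the G1 cells of clusters 5 and 6. The 9 G2/M genes summed to 1932 CPM in estradiol (1663 to 2234) and 1834 CPM in vehicle (1768 to 1902) in G1 members, against 4512 and 4482 CPM in other G1 cells. In G1 cells of cluster 5 the same genes were at 1988 CPM in estradiol (1891 to 2089) and 1697 CPM in vehicle (1613 to 1785), and in those of cluster 6 at 1665 CPM (1495 to 1849) and 1882 CPM (1820 to 1946). The G1 cells of the remaining clusters, 670 in estradiol and 467 in vehicle, were at 5700 and 8710 CPM. The lower level in cluster 2 was thus a difference from the G1 cells of clusters 0, 1, 3 and 7. Cells called G2M outside cluster 2 reached 48294 CPM in estradiol and 61958 CPM in vehicle. The members called S were low as well, with 3626 CPM in estradiol and 2696 CPM in vehicle, against 13611 and 14809 CPM in other S cells. S-phase genes summed to 12397 CPM and 10939 CPM in G1 members, against 16564 and 12657 CPM in other G1 cells. Here too the G1 cells of single clusters were about as low. In estradiol those of clusters 5, 6 and 7 were at 11873, 12902 and 11341 CPM. In vehicle they were at 10385, 10301 and 9884 CPM. In S members the S-phase genes reached 18646 CPM in estradiol and 24889 CPM in vehicle, against 37329 and 38527 CPM in other S cells. Members called S therefore lay between the G1 members and the other S cells on the S-phase genes. The labels do not name the genes behind the phase calls. The 9 vehicle members called G2M reached 19517 CPM on the G2/M genes.

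**Figure D2:**
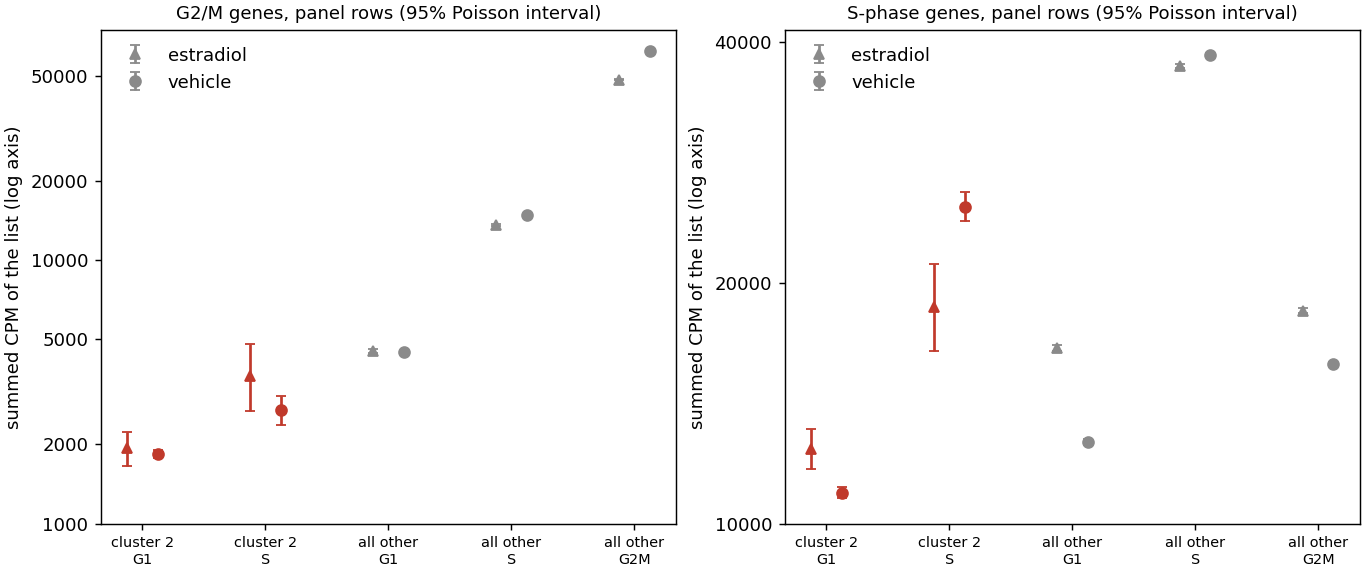
Summed CPM (log axis) of 9 G2/M genes and 18 S-phase genes in the panel rows, for cluster 2 cells called G1 or S and for all other cells called G1, S or G2M, estradiol and vehicle. G1 members sit at 1932 and 1834 CPM on the G2/M genes, below the pooled other G1 cells at 4512 and 4482 CPM, while the G1 cells of cluster 5, not drawn apart, were at 1988 and 1697 CPM.

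In the panel rows, more genes were lower than higher in cluster 2 against the pooled other G1 cells. In the vehicle library 35 of 783 panel genes (4.47%) were at least 1.5-fold lower in cluster 2 than in other G1 cells and 1 (0.128%) was higher. In the estradiol library 39 of 719 (5.42%) were lower and 17 (2.36%) higher. Genes lower in both libraries numbered 11, which is 11 of the 35 and 11 of the 39. The 1 gene higher in vehicle, COL2A1, did not reach the minimum count in estradiol, so no overlap of higher genes could be counted. The depth gap between the groups moved with these calls. Cells of both groups were therefore also compared between the 10th and the 90th percentile of cluster 2's panel UMIs, 987 to 1657 in estradiol and 1082 to 1899 in vehicle. That left 64 members and 165 other G1 cells in estradiol, and 920 members and 241 other G1 cells in vehicle. Depth was closer but not equal in that range, with medians of 1331.5 and 1450 panel UMIs in members against 1511 and 1640 in other G1 cells. At matched depth 17 of 643 vehicle genes were lower and 7 higher, and 11 of these 24 were among the 36 called without matching. In estradiol 6 of 288 were lower and 2 higher, and 5 of these 8 were among the 56. The makeup of the other G1 cells moved with the calls too. In vehicle 595 of the 1415 belonged to cluster 6 and 353 to cluster 5, and in estradiol 74 and 349 of the 1093. Without cluster 6, chosen after seeing the data, 41 of 747 vehicle genes were lower and 6 higher, and 23 of these 47 were among the 36.

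The lower genes included many of the S and G2 phases, which are given first here and not by rank. TOP2A was at 1209 CPM in vehicle members against 3220 CPM in other G1 cells, a log2 ratio of -1.41 (-1.48 to -1.35), and the ratio was -1.88 at matched depth and -1.98 without cluster 6. In estradiol it was at 1906 CPM against 3161 CPM (-0.73, -0.93 to -0.53). Against single clusters TOP2A was not lower: in estradiol the members' 1906 CPM stood above 1117 CPM in cluster 5 (0.77, 0.55 to 0.99) and 924 CPM in cluster 6 (1.04, 0.76 to 1.33), and in vehicle the ratios were 0.50 (0.38 to 0.62) and 0.05 (-0.04 to 0.14). HIST1H3B was at 63.8 CPM in estradiol members and 38.8 CPM in vehicle members, against 211 and 140 CPM; cluster 5 was at 48.3 and 32.9 CPM. E2F1, the activating E2F that drives S-phase genes, was at 365 CPM in estradiol members and 228 CPM in vehicle members, against 576 and 356 CPM, and cluster 6 was at 315 and 197 CPM. The kinase PKMYT1, which holds CDK1 inactive until mitosis, was at 191 CPM and 103 CPM, against 372 and 243 CPM. POLQ, the polymerase of end joining by microhomology, was at 91.2 CPM and 102 CPM, against 291 and 179 CPM. FANCD2, a core protein of the Fanconi anaemia pathway, was at 146 CPM and 222 CPM, against 499 and 347 CPM; in vehicle its log2 ratio of -0.64 was -0.32 at matched depth and -0.98 without cluster 6. In estradiol CCNE2, the cyclin that opens S phase, had 4 UMIs (36.5 CPM) in members against 202 CPM in other G1 cells. In vehicle CCNE2 was not called lower against other G1 cells. It was at 188 CPM in vehicle members, against 186 CPM in cluster 5 and 179 CPM in cluster 6.

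Other lower genes were not of that kind, and several of them rested on cluster 6. ITGA2, a collagen-binding integrin subunit, was at 67.0 CPM in vehicle members against 181 CPM (-1.43, -1.73 to -1.15; -2.40 at matched depth). Cluster 6 alone stood at 344 CPM, and without it the ratio was -0.04. In estradiol ITGA2 was at 119 CPM in members against 83.9 CPM, with an interval of -0.43 to 1.30. The CDK4 and CDK6 inhibitors CDKN2A and CDKN2B were at 319 and 101 CPM in vehicle members against 537 and 164 CPM, log2 ratios of -0.75 and -0.71 that stood at -1.33 and -1.27 at matched depth. Without cluster 6, where the inhibitors were at 730 and 269 CPM, the ratios were -0.34 for CDKN2A and 0.13 for CDKN2B. CDKN2A was at 347 CPM in estradiol members against 340 CPM, so no difference was detectable there at this depth. The nuclear receptor NR4A1, an immediate-early gene, was at 60.0 CPM in vehicle members against 137 CPM (-1.19, -1.51 to -0.88; -0.85 without cluster 6). EPHB6, an ephrin receptor without kinase activity, had the lowest ratio, with 8 UMIs (4.70 CPM) in vehicle members against 47.5 CPM (-3.33, -4.57 to -2.33); cluster 6 was at 92.7 CPM, and the ratio was -1.52 without it. In estradiol EPHB6 had no UMI in members, which allows up to 27.4 CPM, against 35.0 CPM in other G1 cells. WNT4, an estrogen-induced ligand in lobular cells, was at 92.3 CPM in vehicle members against 139 CPM (-0.59, -0.85 to -0.33; -0.99 without cluster 6).

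The higher genes differed by less. In vehicle only COL2A1, a fibrillar collagen, passed 1.5-fold, at 71.7 CPM against 47.7 CPM (0.59, 0.26 to 0.92). KITLG, the ligand of KIT, was at 437 CPM against 294 CPM (0.57, 0.44 to 0.71). IL1R1, the interleukin 1 receptor and an estrogen-repressed gene, was at 1006 CPM against 720 CPM (0.48, 0.40 to 0.57). CXXC4, an inhibitor of Wnt signalling, was at 411 CPM against 290 CPM (0.51, 0.37 to 0.64), and PPARGC1A, a coactivator of mitochondrial genes, at 115 CPM against 79.8 CPM (0.53, 0.27 to 0.78). At matched depth the log2 ratios were 0.65 for CXXC4, 0.92 for PPARGC1A, 0.36 for IL1R1 and 0.39 for COL2A1. Without cluster 6 those of PPARGC1A, KITLG and CXXC4 were 0.86, 0.71 and 0.68. In estradiol CXXC4 was at 264 CPM in members against 111 CPM (1.25, 0.65 to 1.796), while IL1R1 was at 255 CPM against 304 CPM (-0.25, -0.85 to 0.29). CDH1, which encodes E-cadherin, the adhesion protein often lost in lobular carcinoma, was at 301 CPM in estradiol members against 124 CPM (1.28, 0.72 to 1.798), on 33 UMIs.

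TXNIP was high in cluster 2 in both libraries. It was at 1450 CPM in estradiol members against 916 CPM in other G1 cells (0.66, 0.42 to 0.89), and at 4927 CPM in vehicle members against 3545 CPM (0.47, 0.44 to 0.51). Of the 8 clusters, cluster 2 had the highest TXNIP level in each library, with cluster 6 next at 1369 CPM in estradiol and 4089 CPM in vehicle. In estradiol the members' interval of 1233 to 1694 CPM held the cluster 6 value, so their order is not resolved there. Cluster 4 was lowest, at 504 and 2076 CPM. In vehicle the log2 ratio was 0.72 at matched depth and 0.66 without cluster 6. The all-gene rows, counted apart from the panel, placed TXNIP at 383 CPM in vehicle members against 252 CPM (0.60, 0.40 to 0.80), and at 1.40 at matched depth. PNRC1, a nuclear receptor cofactor that represses growth, was also higher in both libraries. It was at 894 CPM in estradiol members and 1433 CPM in vehicle members, against 553 and 1080 CPM. The FOXO and growth-restraint list as a whole was less uniform, with a median log2 ratio of 0.37 in estradiol and 0.03 in vehicle. ERBB3, the HER3 receptor, was at 4081 CPM in vehicle members against 3507 CPM (0.22, 0.18 to 0.26), the highest of the 8 clusters in that library.

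**Figure D3:**
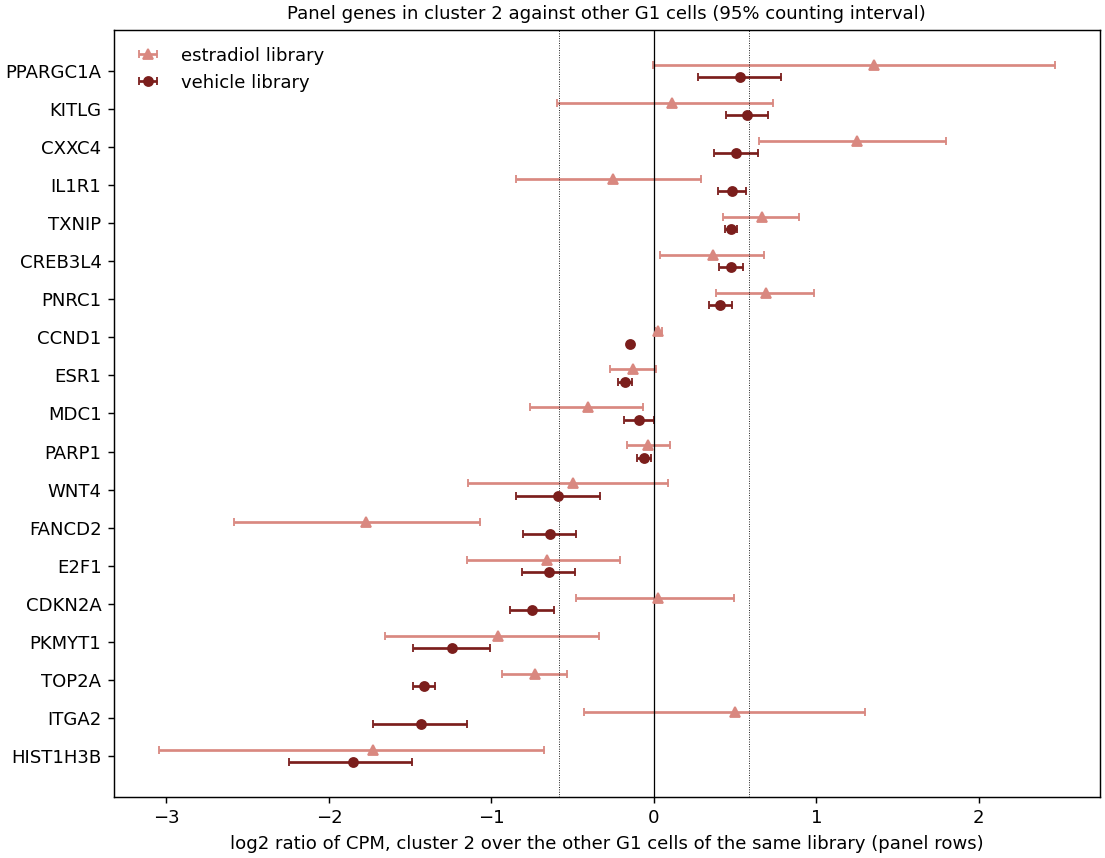
Log2 ratio of cluster 2 to other G1 cells of the same library for a selection of panel genes, estradiol and vehicle, with exact 95% counting intervals; dotted lines mark 1.5-fold. TXNIP lies above 0 in both libraries, at 0.66 and 0.47, and TOP2A below 0 in both, at -0.73 and -1.41, though not against cluster 5 or cluster 6 alone.

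The genes that the study's title and design point to stayed under 1.5-fold within G1. ESR1, the estrogen receptor, was at 3939 CPM in estradiol members and 3612 CPM in vehicle members, against 4304 and 4080 CPM in other G1 cells, with log2 ratios of -0.13 (-0.27 to 0.01) and -0.18 (-0.22 to -0.13). The vehicle ratio of ESR1 was -0.47 without cluster 6 and 0.0 at matched depth. CCND1, cyclin D1, the partner of CDK4 and CDK6 in G1, was at 190949 CPM and 135923 CPM, against 187396 and 150747 CPM. MDC1, the adaptor that binds phosphorylated histone beside DNA breaks, was at 647 CPM in estradiol members and 742 CPM in vehicle members, against 857 and 791 CPM, with ratios of -0.40 (-0.77 to -0.06) and -0.09 (-0.18 to 0.00). The poly(ADP-ribose) polymerase PARP1 was at 4432 and 3616 CPM, against 4537 and 3774 CPM, and PARP2 at 255 and 303 CPM, against 374 and 303 CPM. PGR, the progesterone receptor, had only 5 UMIs in estradiol members and 13 in vehicle members, and its intervals spanned 0 in both libraries. The lowest of these ratios, -0.55 for PARP2 in estradiol (-1.15 to -0.01), rested on 28 UMIs, and none of the 6 genes passed 1.5-fold within a library.

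Read by list against other G1 cells, at the minimum of 50 UMIs where 5.05% of vehicle panel genes were lower and 0.459% higher, and 5.33% and 2.3% in estradiol, the G2/M list stood out in number. Of its 9 genes 4 were lower in estradiol (median log2 ratio -0.77) and 7 in vehicle (median -1.08); at matched depth the medians were -0.41 and -0.86. Against cluster 5 alone the G2/M medians were 0.14 in estradiol and -0.05 in vehicle, and against cluster 6 alone 0.62 and -0.03. As background for the counts below or above 1, 424 of 719 panel genes tested in both libraries lay below 1 in estradiol. The median tested panel gene was at -0.06 in estradiol and -0.02 in vehicle. The S-phase list had 3 of 18 lower in estradiol (median -0.46) and 1 of 18 in vehicle (median -0.22), with every member below 1 in estradiol and 16 below 1 in vehicle; the medians at matched depth were -0.46 and -0.41. G1 cyclins, their kinases and inhibitors had 4 of 20 lower and 1 higher in estradiol, and 3 of 20 lower in vehicle. Estrogen-repressed genes had 2 of 11 higher in estradiol (median 0.04) and 1 of 12 in vehicle (median 0.33, with 10 of 12 above 1), and at matched depth the medians were 0.46 and 0.36. Estrogen-induced genes had none lower in estradiol and 1 of 10 in vehicle, with a median of -0.19 in both. The FOXO and growth-restraint list had 4 of 15 higher in estradiol (median 0.37), among them TXNIP, PNRC1 and the receptor feedback inhibitor ERRFI1 at 447 CPM against 263 CPM, and none of 15 in vehicle (median 0.03); at matched depth the medians were 0.44 and 0.14. All 9 immediate-early genes measured lay below 1 in estradiol, though none passed 1.5-fold (median -0.41), and in vehicle 1 of 9 was lower (median -0.12). At matched depth the immediate-early medians were -0.16 and -0.03.

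The repair gene lists held few called genes, and their medians lay further below 0 in estradiol than in vehicle for most lists. Homologous recombination genes had 2 of 18 lower in estradiol (median -0.27) and 1 of 18 in vehicle (median -0.14), and Fanconi anaemia genes had 2 of 12 lower in each library (medians -0.20 and -0.13, and -0.46 and -0.25 at matched depth). No base excision, mismatch or nucleotide excision repair gene of the panel passed 1.5-fold in either library, over 7, 7 and 8 genes. Base excision genes lay below 1 in 6 of 7 in estradiol (median -0.35) and in 4 of 7 in vehicle (median -0.06). Among all panel genes tested in both libraries, 424 of 719 lay below 1 in estradiol. End joining and damage signalling genes each had 1 lower gene in each library, of 5 and 11 measured. The end joining medians were -0.46 in estradiol and -0.08 in vehicle (-0.40 and -0.13 at matched depth), and those of damage signalling -0.35 and -0.09 (-0.35 and 0.01). XPA, which verifies damage in nucleotide excision repair, was at 620 CPM in vehicle members against 496 CPM (0.32).

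The all-gene rows reach beyond the panel, at lower depth per gene. With at least 200 UMIs, 43 of 2642 vehicle genes (1.63%) were lower in cluster 2 than in other G1 cells and 9 (0.341%) higher; in estradiol 49 of 1577 (3.11%) were lower and 36 (2.28%) higher. At 50 UMIs the estradiol split was the other way, with 71 lower and 100 higher. At matched depth 12 were lower and 4 higher in vehicle, and 1 was lower in estradiol. The proliferation marker MKI67 was at 49.0 CPM in vehicle members against 126 CPM (-1.36, -1.86 to -0.89), and CENPF, a kinetochore protein, at 94.5 CPM against 212 CPM. PHLDA2, an imprinted growth-restraining gene, was at 34.2 CPM against 115 CPM (-1.75, -2.35 to -1.20; -1.79 at matched depth). TUBA1B, a main alpha tubulin, was at 340 CPM against 650 CPM (-0.93, -1.12 to -0.75), and NOLC1, a nucleolar protein of ribosome biogenesis, at 68.3 CPM against 120 CPM. The membrane repair protein MYOF was at 52.4 CPM against 108 CPM, a ratio of -1.04 that was -0.53 at matched depth. Among higher genes IRX5, a homeodomain factor, was at 125 CPM against 74.8 CPM (0.74, 0.38 to 1.10; 1.19 at matched depth). CENPC, a centromere protein, was at 92.2 CPM against 55.1 CPM (0.74), and 0.19 at matched depth.

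Lists in the all-gene rows, at 50 UMIs, are read against 4.02% of 7262 vehicle genes lower and 1.46% higher. G2/M genes had 15 of 28 lower (median -0.93) and estrogen-induced genes 7 of 28 lower (median -0.41), against a median gene of -0.04. At matched depth those medians were -0.53 and -0.20. Estrogen-repressed genes had 3 of 11 higher (median 0.24, and 0.73 at matched depth). Immediate-early genes had 3 of 17 lower (median -0.36, and -0.24 at matched depth) and ribosome biogenesis genes 3 of 24 lower (median -0.17). Cytosolic ribosomal proteins had none of 73 called, but 54 of 73 were above 1 (median 0.08) in vehicle and 58 of 73 (median 0.16) in estradiol. At matched depth the medians were 0.03 and 0.09. Of 1570 all-gene rows tested in both libraries, 731 lay above 1 in estradiol. Of 22 base excision genes none was called, with a median of 0.07 (0.30 at matched depth).

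Against single clusters that are also mostly G1, the counts of called panel genes in vehicle leaned in opposite ways under CPM scaling. Cluster 5 was called G1 in 95.6% of its estradiol cells and 97.0% of its vehicle cells, and cluster 6 in 74 of 79 and 595 of 626 cells. Their median panel UMIs were 2144 and 2332 in cluster 5, and 2674 and 2902 in cluster 6, above the 1331.5 and 1450 of cluster 2. Against vehicle cells of cluster 5, 38 of 689 panel genes (5.52%) were higher in cluster 2 and 21 (3.05%) lower. ESR1 was at 3612 CPM in cluster 2 against 6329 CPM in cluster 5 (-0.81, -0.86 to -0.76), and WNT4 at 92.3 CPM against 227 CPM. JAK2, the kinase behind cytokine receptors, was at 272 CPM against 478 CPM, and EGR3, an estrogen-induced zinc finger factor, at 175 CPM against 298 CPM. TXNIP was at 4927 CPM against 3249 CPM (0.60, 0.54 to 0.66), and IL1R1 and the differentiation inhibitor ID2 also had log2 ratios of 0.60. The median tested panel gene of this contrast was at 0.09. With that shift removed, TXNIP, IL1R1 and ID2 would fall short of 1.5-fold, so the excess of higher genes depends on the scaling. The split with a median-of-ratios size factor was not computed here. At 50 UMIs, with 6.62% of panel genes higher and 4.17% lower, 6 of 9 estrogen-induced genes were lower (median -0.77, against a median gene of 0.09) and 5 of 12 estrogen-repressed genes higher (median 0.52). None of 7 G2/M genes and none of 18 S-phase genes passed 1.5-fold, with medians of -0.05 and 0.04. Among all-gene rows, where 3.14% of genes were higher and 3.85% lower, 10 of 18 estrogen-induced genes were lower and 1 higher. Among them the trefoil factor TFF3 was at 214 CPM against 496 CPM, the chaperone FKBP4 at 322 CPM against 620 CPM, and the receptor cofactor NRIP1 at 388 CPM against 689 CPM.

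Against vehicle cells of cluster 6, 16 of 732 panel genes (2.19%) were lower in cluster 2 and 6 (0.82%) higher. The lower ones included ITGA2 (67.0 CPM against 344 CPM), CDKN2B (101 CPM against 269 CPM), CDKN2A (319 CPM against 730 CPM) and NR4A1 (60.0 CPM against 172 CPM). ESR1 was higher in cluster 2 there, at 3612 CPM against 2757 CPM (0.39). At 50 UMIs, with 1.43% of panel genes higher and 3.34% lower, 2 of 9 estrogen-induced genes were higher (median 0.16), and 1 of 12 estrogen-repressed genes was higher and 1 lower (median 0.07). On ESR1, cluster 2 thus stood below cluster 5 and above cluster 6 in vehicle.

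Estradiol and vehicle members of cluster 2 differed from each other. Of 641 panel genes 31 (4.84%) were at least 1.5-fold higher in estradiol members and 76 (11.9%) lower, around a median gene of -0.13. With a median-of-ratios size factor the split was 51 higher and 48 lower. TXNIP was at 1450 CPM in estradiol members against 4927 CPM in vehicle members (-1.76, -2.00 to -1.54), and IL1R1 at 255 CPM against 1006 CPM (-1.98, -2.57 to -1.44). The immediate-early factor FOS was at 401 CPM against 1280 CPM, and TGFB3, a growth-inhibiting ligand, at 337 CPM against 819 CPM. KITLG was at 191 CPM against 437 CPM (-1.19) and ID2 at 2116 CPM against 3896 CPM (-0.88). All 6 of these genes had ratios above 1 against other G1 cells in the vehicle library, FOS least, at 1280 CPM against 1256 CPM. The same vehicle member values enter both ratios, and the genes were picked by one of them, so this is no separate evidence. The share of all lower genes above 1 there was not counted.

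Among higher genes, ZNF703, a luminal transcription cofactor, was at 8800 CPM in estradiol members against 4669 CPM in vehicle members (0.91, 0.82 to 1.01). The cytokine receptor subunit IL6ST was at 5362 CPM against 2869 CPM, JAK2 at 502 CPM against 272 CPM, and EGR3 at 310 CPM against 175 CPM. WNT4 was at 219 CPM against 92.3 CPM (1.25), on 24 UMIs in estradiol members. PGR was at 45.6 CPM against 7.64 CPM, a log2 ratio of 2.58 (0.74 to 4.16) from 5 and 13 UMIs. CCND1 was at 190949 CPM against 135923 CPM (0.49), and ESR1 at 3939 CPM against 3612 CPM (0.13, -0.02 to 0.27). At 50 UMIs, with 5.7% of panel genes higher and 10.4% lower, 4 of 9 estrogen-induced genes were higher and 1 lower (median 0.52), and 10 of 11 estrogen-repressed genes were lower and 1 higher (median -1.44). The FOXO and growth-restraint list had 7 of 15 lower and 1 higher (median -0.54), and immediate-early genes had 5 of 9 lower and 1 higher (median -0.80).

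The other G1 cells come from the same cultures and libraries, so they share any difference between the libraries, and their estradiol to vehicle values stand beside these. Of 796 panel genes 32 (4.02%) were higher and 77 (9.67%) lower there. TXNIP was at 916 CPM in estradiol against 3545 CPM in vehicle (-1.95), IL1R1 at 304 CPM against 720 CPM (-1.25), and ZNF703 at 9086 CPM against 5419 CPM (0.75). The list medians were 0.61 for estrogen-induced and -1.08 for estrogen-repressed genes. TOP2A was at 3161 CPM in estradiol against 3220 CPM in vehicle (-0.03) in other G1 cells, and at 1906 CPM against 1209 CPM (0.66, 0.44 to 0.86) in cluster 2. CDH1 was at 124 CPM against 137 CPM (-0.15) in other G1 cells, and at 301 CPM against 131 CPM (1.21, 0.63 to 1.74) in cluster 2. Whether the treatment difference itself differs between the groups was not tested, since each rests on 1 library per treatment.

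In the all-gene rows 40 of 666 genes (6.01%) were higher in estradiol members of cluster 2 and 35 (5.26%) lower. TUBA1B was at 866 CPM against 340 CPM (1.35) and NRIP1 at 818 CPM against 388 CPM (1.08). The keratin KRT8 was at 1235 CPM against 732 CPM (0.75), and TXNIP had a log2 ratio of -1.77, close to its panel value.

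Repair signal was read as the share of a substrate's UMIs that end at positions 44 to 50 of 61, a window that holds the most frequent ends of the Abasic and Uracil1 substrates. The row names give a hairpin with an abasic site (Abasic), 3 with uracil (Uracil1, Uracil2, Uracil3), 1 with a G and U pair (GU) and 1 with a ribonucleotide (riboG). The remaining substrates (Normal, CI, TI) stayed between 0.0828% and 0.276% in that window in members and other G1 cells. Abasic sites are opened by the endonuclease APEX1, uracil is removed by uracil glycosylases such as UNG before that cut, and RNase H2 cuts beside a ribonucleotide. At the Abasic substrate the share was 68.8% in estradiol members and 74.0% in vehicle members, against 60.3% and 62.7% in other G1 cells. Its log2 ratios were 0.19 (0.14 to 0.24) and 0.24 (0.22 to 0.26), and the single position with most UMIs was 46 in both groups. That position was 45 for Uracil1, 20 for Uracil2, 9 for riboG and CI, and 6 for GU and TI, in members and other G1 cells of both libraries. For Uracil3 it was 14 in members of both libraries, against 20 in estradiol and 14 in vehicle in other G1 cells, and for Normal it was 9 in members against 20 in other G1 cells. All other lesions had a lower share in cluster 2. RiboG stood at 4.03% and 3.42% in members, against 5.78% and 6.16% in other G1 cells, and GU at 5.04% and 4.58%, against 7.35% and 7.43%. Uracil1 stood at 23.8% and 24.4%, against 26.8% and 28.1%, Uracil2 at 12.9% and 13.1%, against 14.9% and 16.03%, and Uracil3 at 7.05% and 6.91%, against 9.96% and 10.2%.

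**Figure D4:**
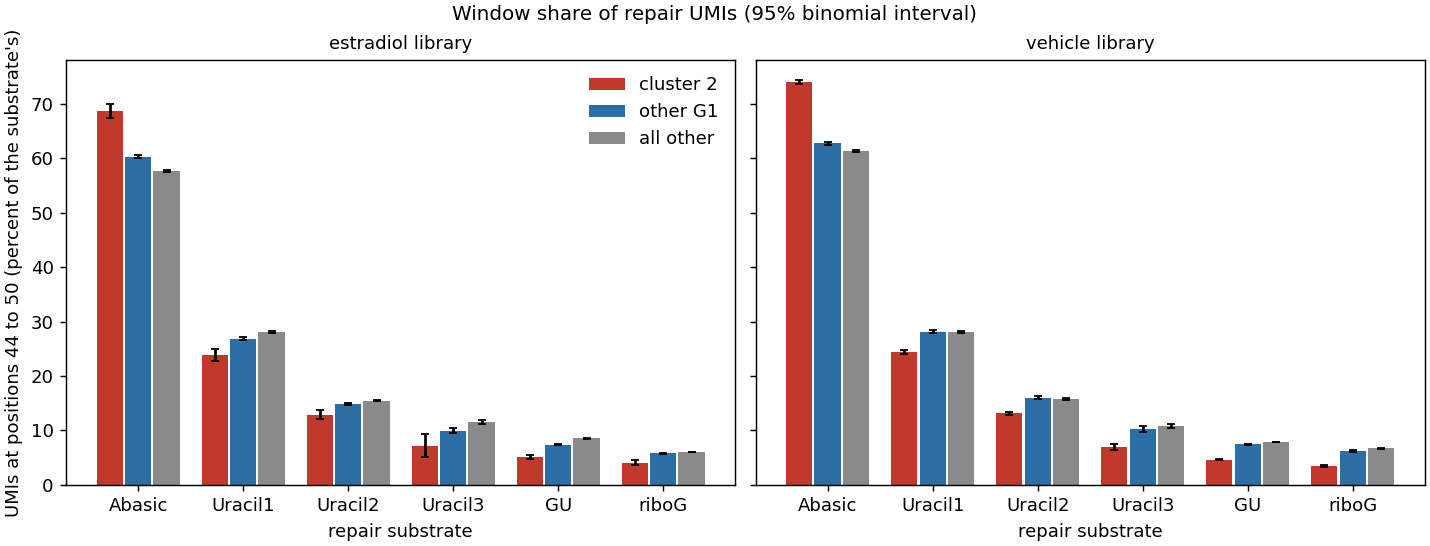
Percent of each substrate's UMIs that end at positions 44 to 50, in cluster 2, other G1 cells and all other cells of the estradiol and vehicle libraries, for the 6 lesion substrates. Cluster 2 is highest for Abasic, at 68.8% and 74.0%, and below the other G1 cells for riboG, GU and the 3 uracil substrates.

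Counted per cell, the ends in the window were fewer in cluster 2 for every lesion. Abasic ends averaged 44.2 per cell in estradiol members and 37.9 in vehicle members, against 46.7 and 40.7 in other G1 cells. RiboG ends averaged 3.45 and 2.28, against 6.27 and 5.24, and GU ends 10.6 and 7.78, against 18.4 and 14.5. By single position, 44 of 289 vehicle positions with at least 500 UMIs (15.2%) were lower in cluster 2, relative to all repair UMIs, and 5 (1.73%) higher, and in estradiol 33 of 253 (13%) lower and 3 (1.19%) higher. RiboG position 45, its largest end in the window, had 1530 ends, scaled to a repair total like CPM, in vehicle members against 2897 (-0.92). The furthest from 0 among Uracil1 positions were 56, 53 and 52, at -1.86, -1.65 and -1.52 in vehicle, and among GU positions 52, 54 and 53, at -1.57, -1.46 and -1.41. For Abasic they were positions 9, 14 and 7 (-1.15, -1.07 and -1.06), for Uracil2 50, 21 and 48 (-1.30, -1.24 and -1.01), for Uracil3 45, 21 and 20 (-0.77, -0.48 and -0.47), and for riboG 46, 45 and 48 (-0.95, -0.92 and -0.87). For the substrates without a window signal they were 21, 11 and 1 for Normal (-0.67, -0.61 and 0.46) and 17, 15 and 16 for TI (-0.68, -0.60 and -0.54). For CI they were 17, 11 and 10 (-0.50, -0.41 and -0.37). Normal and TI thus moved about as far as Uracil3, and less than the other lesion substrates. Against all other cells 87 of 340 vehicle positions (25.6%) were lower and 15 (4.41%) higher, and in estradiol 70 of 334 (21%) lower and 15 (4.49%) higher.

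The repair differences moved with the depth of the cells. With both groups held to the matched range of panel UMIs, the Abasic log2 ratio was -0.03 in estradiol and 0.03 in vehicle, riboG stood at -0.16 and -0.32, and GU at -0.42 and -0.39. In bins of panel UMIs, vehicle members of 1600 to 2000 UMIs had an Abasic share of 72.9% against 72.7% in other G1 cells of that bin (340 against 217 cells). Below it, between 1300 and 1600 UMIs, the shares were 74.4% against 69.4% (350 against 73 cells), and above it, between 2000 and 2500, 72.9% against 69.8% (64 against 301 cells). Other G1 cells with at least 2500 UMIs, of which the vehicle library had 797, had 57.7%. RiboG was 3.45% in members against 3.89% between 1300 and 1600 UMIs, 3.56% against 4.51% between 1600 and 2000, and 4.74% against 4.44% between 2000 and 2500. It was 7.20% in other G1 cells of at least 2500 UMIs. In estradiol the 1300 to 1600 bin held 33 members and 112 other G1 cells, with Abasic shares of 68.2% against 70.8% and GU shares of 4.10% against 6.79%. Within these bins of panel UMIs the Abasic and riboG differences were mostly smaller than over all cells, and in single bins of either they were close to 0 or turned round.

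Expression in the same bins is set beside it. TXNIP in vehicle was at 5194 CPM in members against 3790 CPM in other G1 cells between 1300 and 1600 UMIs, and at 4360 CPM against 2702 CPM between 1600 and 2000. The G2/M genes summed to 1866 CPM against 5939 CPM in the lower bin and 2148 CPM against 3628 CPM in the upper one. In the estradiol bin of 1300 to 1600 UMIs TXNIP was at 1241 CPM in members against 1055 CPM, with overlapping intervals of 943 to 1605 and 905 to 1223, and the G2/M genes were at 3617 CPM against 3509 CPM. The lower G2/M level was thus seen within these bins in vehicle and was not detectable in that estradiol bin. Only panel UMIs were binned, so all-gene and repair depth can still differ within a bin.

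**Figure D5:**
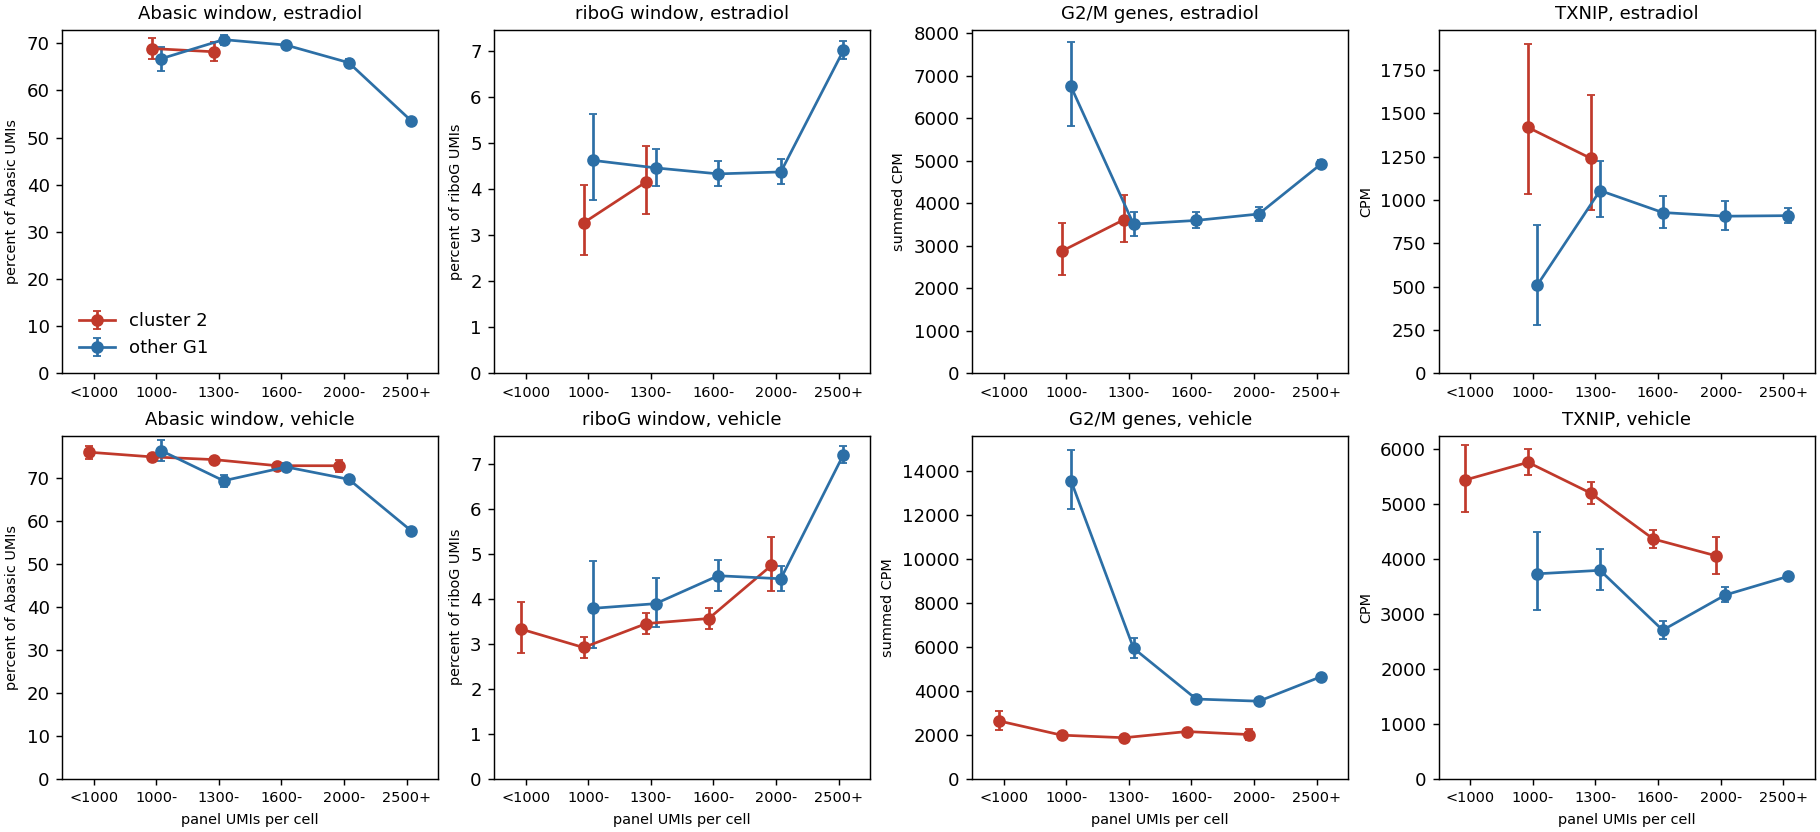
Abasic and riboG window share (percent), summed G2/M level and TXNIP level (CPM) by bin of panel UMIs per cell, for cluster 2 in red and other G1 cells in blue; estradiol above, vehicle below, with exact 95% counting intervals. Vehicle members keep a higher TXNIP level than other G1 cells of the same bin, 4360 against 2702 CPM between 1600 and 2000 UMIs, while the Abasic shares there are 72.9% and 72.7%.

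The authors' 8 deposited scores named from ER, FOXA1 and MDC1 had lower medians in cluster 2 than in other G1 cells in both libraries. The labels do not say how they were made. The score named ER, MDC1 and targeted had a median of 0.440 in vehicle members against 0.499 in other G1 cells, and 0.438 against 0.439 at matched depth. The score named ER and FOXA1 targeted had medians of 0.370 against 0.444, and 0.370 against 0.398 at matched depth.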

How the data were processed

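MM134 cells of 2 treatments were profiled with 1 targeted mRNA library and 1 Haircut library each. The authors deposited natural log values per cell in 3 blocks: 33538 all-gene rows, 1253 panel rows and 549 repair rows (9 substrates of 61 positions). They also deposited UMI counts per cell and block, a mitochondrial percent, cluster and phase calls, and 8 score columns, per the file headers; neither labels nor headers say how clusters, phases and scores were made. The submitters' processing notes name UMI-tools 0.5.3, SAMtools, Bowtie2 2.3.2, cutadapt 1.8.3, Cell Ranger 3.0.2 and the build hg38, without saying which did what.

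UMI counts were recovered from the authors' natural log values, which scale each cell to 10000; nonzero values were whole, to 1e-06, in 100% of cases, and their sums equalled the deposited totals in 100% of cells. Each group's UMIs per row were summed and divided by its total in that block. Cluster 2 held 109663 panel UMIs in estradiol and 1701097 in vehicle, and 78963 and 865825 repair UMIs, so vehicle values are the more precise. Intervals are exact at 95%: Poisson for CPM, Clopper-Pearson for shares, and conditional binomial for ratios. They treat each UMI as independent and leave out variation between cells and cultures. A gene was called at a fold of 1.5 with an interval that excludes a ratio of 1, at least 200 UMIs and at least 20 CPM in 1 group (50 UMIs for lists, 500 for repair positions).

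Named genes followed a rule: MDC1, ESR1, PGR, PARP1, PARP2, CCND1 and TXNIP; the 12 highest and 12 lowest ratios against other G1 cells in vehicle; the 6 highest and 6 lowest against all other cells and between treatments; up to 4 members per list; every repair substrate with its main position and 3 positions of largest ratio. TGFB3, PNRC1, CDH1 and genes described against clusters 5 and 6 or in estradiol alone were named after their values were seen. Members and lists were chosen with earlier results of these data known. Every cell was kept; doublets were not called, and dropping the deepest 5% of cells was an alternative. Not every gene under the rule is named in the text, a few are not reported, and the 3 positions of each substrate are those of vehicle against other G1 cells. TOP2A and other G2/M genes were set against clusters 5 and 6 after values were seen. Python 3.11.15, numpy 2.4.6, scipy 1.17.1, pandas 2.3.3 and matplotlib 3.10.9 were used; calls were checked on simulated counts.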

Additional observations from a re-analysis of the deposited data

How the results depend on the processing

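With 1 library per treatment and assay, leaving out a replicate was not possible. No paired analysis was possible because each group holds 1 library and the results come from no test. Matched depth, matched repair depth and leaving out clusters 6 or 7 were chosen after seeing the data. Of the counts, shares and repair ratios that carry the text, 111 recomputed values stayed within 1.5 times or within the counting interval, 46 moved and 1 changed sign. Of single genes, lists and repair ratios against all other cells, 2759 stayed, 274 moved and 2 were counted as changed in sign. These were CDKN2B without cluster 6 (0.13) and HSPA1B of the all-gene rows at matched depth (0.058). A sign change was counted for genes only if they were called in the main setting, and not for list medians. Other genes and lists also changed sign, such as FOSB of the all-gene rows, from -0.86 to 1.21 at matched depth. Where the cause is not named by the setting, it was not tested.

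Counts of panel genes at a fold of 2 were 20 in estradiol and 13 in vehicle against other G1 cells, and 76 and 56 against all other cells. At matched depth, with fewer cells, panel counts were 8 against other G1 cells and 45 against all other cells in estradiol. In the all-gene rows against other G1 cells, a minimum of 50 UMIs gave 171 in estradiol and 391 in vehicle, a fold of 2 gave 44 and 7, and matched depth gave 1 and 16. Against all other cells, matched depth gave 12 in estradiol and 42 in vehicle, and a fold of 2 gave 256 in vehicle. Between treatments within cluster 2, a minimum of 50 UMIs gave 206 all-gene calls. In the all-gene rows of estradiol against other G1 cells, 100 were higher and 71 lower at 50 UMIs.

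Cells with at least 800 all-gene UMIs gave a cluster 2 share of 0.867% in estradiol and 11.2% in vehicle, with 96.4% of those estradiol members called G1; without the deepest 5% of cells the vehicle share was 24.5%. Repair log2 ratios at matched panel depth were -0.025 (Abasic, changed sign), -0.16 (riboG), -0.42 (GU) and -0.29 (Uracil1) in estradiol, and 0.035 (Abasic), -0.32 (riboG), -0.39 (GU), -0.19 (Uracil2) and -0.36 (Uracil3) in vehicle. At matched repair depth they were 0.12 (Abasic) in estradiol, and 0.16 (Abasic), -0.71 (riboG), -0.75 (GU), -0.31 (Uracil1) and -0.40 (Uracil2) in vehicle. The window of positions 45 and 46 gave -0.44 (GU) and -0.087 (Uracil1) in estradiol, and 0.28 (Abasic), -0.61 (GU), -0.10 (Uracil1) and -0.21 (Uracil2) in vehicle. With cells weighted equally GU was -0.42 in estradiol, and Abasic was 0.20 and GU -0.66 in vehicle. Without cluster 7 GU was -0.75, Uracil1 -0.23 and Uracil2 -0.33 in vehicle. The 82 estradiol members limit every estradiol value.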

Other observations

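Several genes that are not cell-cycle genes were higher in cluster 2 than in all other cells of the vehicle library, a comparison in which the phases differ too. PPARGC1A was at 115 CPM in members against 55.4 CPM (1.06, 0.82 to 1.29), and the zinc finger repressor ZBTB20 at 274 CPM against 139 CPM (0.98, 0.83 to 1.13). The fibroblast growth factor receptor FGFR4 was at 419 CPM in estradiol members and 593 CPM in vehicle members, against 211 and 305 CPM in all other cells. In vehicle cluster 5 was above cluster 2 on FGFR4, at 621 CPM, and clusters 0 and 4 were at 142 and 164 CPM. CXXC4 was at 264 CPM in estradiol members and 411 CPM in vehicle members, against 81.3 and 217 CPM in all other cells. PNRC1 was at 894 CPM and 1433 CPM in members, against 385 and 794 CPM. Of 73 cytosolic ribosomal protein genes in the all-gene rows, 69 lay above 1 in vehicle members (median log2 ratio 0.24), and MT-CO1, a mitochondrially encoded subunit of cytochrome oxidase, was at 13316 CPM against 10781 CPM. The median tested gene of those rows was at -0.05 in that contrast. PARP2 was at 255 CPM in estradiol members and 303 CPM in vehicle members, against 560 and 474 CPM in all other cells, ratios of -1.13 and -0.64. In vehicle it was at 264 and 277 CPM in clusters 5 and 6, and at 736 and 619 CPM in clusters 0 and 1. Its vehicle log2 ratio against other G1 cells was 0.0.

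Against vehicle cells of cluster 5, all 16 heat shock chaperone genes of the all-gene rows lay below 1 in cluster 2 (median -0.35), with 1 past 1.5-fold. The median tested gene of those rows was at 0.02. B2M, the light chain of class I histocompatibility molecules, was higher there, at a log2 ratio of 0.77 in the same rows.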
